A study of Mus musculus with 3 samples.

Results

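The 9 genes described here encode transcription factors of the osteoblast program around *Runx2*. They are the RUNX factors *Runx1*, *Runx2*, and *Runx3*, the zinc finger factor *Sp7* (osterix), the homeobox factors *Dlx3*, *Dlx5*, *Dlx6*, and *Msx2*, and the MADS-box factor *Mef2c*. They were taken by name from the 32285 genes counted in 3 droplet libraries of mouse fracture callus, and all 9 were found. Each library came from C57BL/6 mice with a femoral fracture, 1 library at day 7, 1 at day 10, and 1 at day 14. For its fractures the paper describes isoflurane anesthesia, buprenorphine against pain, and a steel pin placed through the marrow space. Muscle and marrow were removed, the callus was digested with collagenase, and live cells negative for CD45, CD31, and TER119 were sorted, so hematopoietic, endothelial, and erythroid cells were meant to be absent. How many mice were pooled into a library is not given in the sources used here, and the labels name no transgene, mutation, or treatment. With 1 library a day, day and library cannot be told apart, and no p-value was computed.

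*Runx2* is required for the osteoblast lineage and acts upstream of *Sp7*, whose product completes the step from preosteoblast to osteoblast. RUNX proteins bind DNA through a shared Runt domain, together with the partner protein CBFB, and in cartilage RUNX2 also drives chondrocyte hypertrophy, a step that MEF2C promotes as well. DLX3, DLX5, and DLX6 are homeodomain activators of osteoblast genes, and MSX2 can act as a repressor of the same genes.

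The promoter sequences that bear on these genes are shown because the 3 *Runx* genes share a stretch with a pair of RUNX binding words. In RefSeq windows of 300 bases (250 before and 50 after a transcription start, GRCm38.p6), 5 of the 9 genes had an entry, namely *Runx1*, *Runx2*, *Runx3*, *Msx2*, and *Mef2c*. The core word ACCACA was searched on both strands, so that its reverse complement TGTGGT counted too. It was in 16.8% of all 32851 windows, and 3 of the 9 windows of these genes held it. The spaced pair ACCACANNACCACA was far rarer and lay in 7 windows of 7 genes, or 0.0213% of all windows. The 7 genes included *Runx1*, *Runx2*, and *Runx3*, whose pairs are written below 5′ to 3′ with each ACCACA in capitals.
Runx1: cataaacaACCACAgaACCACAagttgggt
Runx2: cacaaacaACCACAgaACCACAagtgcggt
Runx3: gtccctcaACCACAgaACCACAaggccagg
The *Runx1* stretch lies at chr16:92826025-92826054 on the minus strand and the *Runx2* stretch at chr17:44814583-44814612 on the minus strand. Both are inside the gene's first exon in the GENCODE M21 annotation, which counts the *Runx1* stretch as 5′ untranslated and the *Runx2* stretch as untranslated or coding depending on the transcript. The *Runx2* stretch also lies within an intron of *Supt3*, which runs on the opposite strand. The *Runx3* stretch lies at chr4:135120503-135120532 on the plus strand, before the annotated start of the gene. These matches describe letters only. No binding was measured in these samples.

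Cells were taken when they had 500 to 5000 genes, at most 10% mitochondrial UMIs, at most 5% hemoglobin UMIs, and no UMI of *Ptprc*, which encodes CD45. A UMI (unique molecular identifier) marks 1 captured mRNA molecule. Of the cells within the limits, 447 of 7017 at day 7, 6587 of 6593 at day 10, and 9680 of 9853 at day 14 had no *Ptprc* UMI. The day 7 library thus held mostly cells with UMIs of *Ptprc*, against its sort, and it enters only where stated. The libraries held 55187609, 113618580, and 154573230 UMIs in the cells within the limits. A cell was put in a class when exactly 1 of *Aspn*, *Cnmd*, *Col10a1*, and *Ifitm5* stood at 1000 CPM or more in that cell (UMIs scaled to a total of 1000000), with at least 3 UMIs. *Aspn* encodes asporin of fibroblastic periosteal cells, *Cnmd* chondromodulin of chondrocytes, *Col10a1* collagen X of hypertrophic chondrocytes, and *Ifitm5* a membrane protein of mature osteoblasts. The classes held 1618 *Aspn*-high, 2330 *Cnmd*-high, 520 *Col10a1*-high, and 73 *Ifitm5*-high cells at day 10, and 3653, 1484, 1657, and 249 cells at day 14. At day 7 only the *Cnmd*-high class reached 50 cells, with 57, and the others had 22, 10, and 1 and are not described. Median depth in the classes of day 10 and day 14 ran from 14088 to 20989 UMIs per cell.

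The classes were checked against lists of marker genes, of which each class's own marker chose its cells. At day 10 and day 14 the fibroblastic list was highest in *Aspn*-high cells, the chondrocyte list in *Cnmd*-high cells, the hypertrophic list in *Col10a1*-high cells, and the osteoblast list in *Ifitm5*-high cells. These sums include the marker that chose the cells, so that part was fixed in advance. *Col10a1* itself gave 25981 of 34834 CPM of the hypertrophic list in its class at day 10 and 22003 of 28589 CPM at day 14. *Mmp13* of the same list, which chose no class, had 6387 and 4349 CPM there, against 87.4 and 164 CPM in *Cnmd*-high cells. The *Col10a1*-high cells still had 26909 and 21109 CPM of the 6 chondrocyte markers, and the *Aspn*-high cells had 19825 and 18808 CPM of the 6 osteoblast markers, which include *Col1a1*. The 8 hematopoietic markers summed to 0.787 to 63.0 CPM in the classes of day 10, 28.96 to 392 CPM at day 14, and 1945 CPM in the *Cnmd*-high cells of day 7, with *Ptprc* at 0 by choice of the cells. Endothelial markers stood at 4.38 CPM or less in every class. The libraries shared 29 to 42 cell barcodes with each other.

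Each level below was computed by adding up the UMIs of a class in its library and scaling them to CPM, and the exact Poisson intervals cover counting error only. Since UMIs were counted at the 3′ end and not per length, levels were compared between classes and not between genes.

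*Runx2* (ENSMUSG00000039153; chromosome 17, 44495987 to 44814797, minus strand) was highest in *Col10a1*-high cells, at 239.7 CPM (95% CI, 229–250.2) at day 10 and 204 CPM (95% CI, 199–209.8) at day 14. The *Ifitm5*-high cells came next, at 180.1 CPM (95% CI, 158–205) and 174 CPM (95% CI, 161–187). *Aspn*-high cells had 96.3 and 75.99 CPM, and *Cnmd*-high cells 75.9, 79.4, and 59.1 CPM at day 7, day 10, and day 14. The order of the 4 classes was the same at day 10 and day 14, with no overlap of the intervals of neighbors on either day. The log2 ratio of *Ifitm5*-high over *Col10a1*-high cells was -0.41 (95% CI, -0.62 to -0.21) at day 10 and -0.24 (95% CI, -0.35 to -0.12) at day 14, below 2-fold in both.

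*Runx1* (ENSMUSG00000022952; chromosome 16, 92601466 to 92826149, minus strand), a RUNX factor best known from blood formation and also expressed in periosteal and cartilage progenitors, had another order. Its level was 428 CPM (95% CI, 419.9–436) and 433 CPM (95% CI, 427–439) in *Aspn*-high cells, 358 and 245 CPM in *Col10a1*-high cells, and 204 and 181 CPM in *Cnmd*-high cells. The *Ifitm5*-high cells were lowest, at 146 CPM (95% CI, 126–169) and 107 CPM (95% CI, 97.01–118). The *Cnmd*-high cells of day 7 had 224 CPM (95% CI, 197–252). No intervals of neighbors overlapped on either day, and the *Ifitm5*-high class, second highest for *Runx2*, was the lowest of the 4 for *Runx1*.

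*Runx3* (ENSMUSG00000070691; chromosome 4, 135120652 to 135177990, plus strand), which acts together with *Runx2* in chondrocyte maturation, spanned a narrower range. It was highest in *Cnmd*-high cells, at 69.2 CPM (95% CI, 55.01–85.8) at day 7, 62.6 CPM (95% CI, 60.4–64.98) at day 10, and 53.1 CPM (95% CI, 50.6–55.7) at day 14. *Col10a1*-high cells had 51.99 and 40.1 CPM, *Aspn*-high cells 38.8 and 38.8 CPM, and *Ifitm5*-high cells 36.97 and 26.9 CPM. The intervals of the *Aspn*-high and *Ifitm5*-high cells overlapped at day 10, and those of the *Col10a1*-high and *Aspn*-high cells overlapped at day 14. The highest class exceeded the lowest by 1.69-fold at day 10 and 1.98-fold at day 14, against 3.02-fold and 3.46-fold for *Runx2*.

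*Cbfb*, which encodes the DNA-binding partner of all 3 RUNX proteins and is not among the 9 genes, did not follow *Runx2*. It stood at 50.3 and 50.1 CPM in *Col10a1*-high cells, where *Runx2* was highest, and in *Aspn*-high cells its 95% CI was 96.1–104 CPM at day 10 and its level 95.9 CPM at day 14. *Cnmd*-high cells had 85.9 and 90.5 CPM, and *Ifitm5*-high cells 75.5 and 76.4 CPM.

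*Sp7* (ENSMUSG00000060284; chromosome 15, 102356606 to 102367182, minus strand) was highest in *Ifitm5*-high cells, at 247 CPM (95% CI, 220.4–276) at day 10 and 175 CPM (95% CI, 162–189) at day 14. The level in *Col10a1*-high cells was 72.7 CPM (95% CI, 67.2–78.6) and 57.1 CPM (95% CI, 54.3–60.03). *Cnmd*-high cells had 73.4 CPM at day 7, 55.1 CPM at day 10, and 48.5 CPM at day 14, and *Aspn*-high cells had 45.99 and 30.3 CPM. The order of the classes was the same on both days without overlap of neighbors. Set beside the order of *Runx2*, the *Ifitm5*-high and *Col10a1*-high cells had changed places, and so had the *Aspn*-high and *Cnmd*-high cells. As a background, cells with *Ptprc* UMIs had 2.13 CPM of *Sp7* at day 7 (6570 cells) and 19.9 CPM at day 14 (173 cells), and cells high for the pericyte gene *Rgs5* and for none of the 4 markers had 12.7 CPM at day 14 (125 cells). The lowest class, *Aspn*-high, lay above each of these when taken as a whole. At day 14, though, its 2818 cells with no UMI of *Dlx5* or *Dlx6* had 18.6 CPM, below the 19.9 CPM. All cells without *Ptprc* UMIs that had *Aspn* from 5000 to 20000 CPM had 21.2 CPM (95% CI, 19.2–23.2) at day 14. Day 10 had too few background cells for such a level, with 6 cells with *Ptprc* UMIs and 47 *Rgs5*-high cells.

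*Dlx3* (ENSMUSG00000001510; chromosome 11, 95120119 to 95125296, plus strand), a homeobox activator of osteoblast and hair genes, had few UMIs, 37 and 92 in *Ifitm5*-high cells. They gave 29.1 CPM (95% CI, 20.5–40.1) and 24.2 CPM (95% CI, 19.5–29.7). *Col10a1*-high cells had 4.27 CPM (95% CI, 3.003–5.88) and 2.78 CPM (95% CI, 2.18–3.48), while *Cnmd*-high and *Aspn*-high cells were at or below 0.841 CPM on both days. *Aspn*-high cells had 8 UMIs in 1618 cells at day 10 and 13 UMIs in 3653 cells at day 14. The class differences were the widest of the 8 factors compared, 89.5-fold at day 10 and 95.1-fold at day 14 from the highest to the lowest class.

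*Dlx5* (ENSMUSG00000029755; chromosome 6, 6877805 to 6882085, minus strand), a homeobox activator upstream of *Sp7*, was close in level in the *Ifitm5*-high and *Col10a1*-high cells. The *Ifitm5*-high cells had 72.4 CPM (95% CI, 58.3–88.8) and 67.1 CPM (95% CI, 59.2–75.9), and the *Col10a1*-high cells 71.7 CPM (95% CI, 66.2–77.6) and 72.6 CPM (95% CI, 69.4–75.9). The intervals of the pair of classes overlapped on both days. *Aspn*-high cells had 40.6 and 25.3 CPM, and *Cnmd*-high cells 29.2 and 29.4 CPM, so the order of these lower classes changed between the days.

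*Dlx6* (ENSMUSG00000029754; chromosome 6, 6863334 to 6868568, plus strand) is the neighbor of *Dlx5* on chromosome 6, with 9236 bases between the genes, and it overlaps the antisense gene *Dlx6os1* on the opposite strand. At day 10 its level was 18.4 CPM (95% CI, 15.7–21.5) in *Col10a1*-high cells, 15.2 CPM (95% CI, 13.7–16.8) in *Aspn*-high cells, 14.2 CPM (95% CI, 8.39–22.4) in *Ifitm5*-high cells, and 7.25 CPM (95% CI, 6.49–8.07) in *Cnmd*-high cells. At day 14 it was 9.07, 4.25, 12.1, and 5.08 CPM, respectively. At day 10 the intervals of all classes but *Cnmd*-high overlapped with those of a neighbor. At day 14 the *Aspn*-high class had the lowest level, with an interval that overlapped that of *Cnmd*-high cells, and the intervals of the *Ifitm5*-high and *Col10a1*-high cells overlapped above them. *Dlx6os1* stood at 4.76 and 1.59 CPM in *Aspn*-high cells, and whether the counting used strand is not given in the sources used here.

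*Msx2* (ENSMUSG00000021469; chromosome 13, 53466884 to 53473074, minus strand) was hardly detected. All 16714 cells without *Ptprc* UMIs held 38 UMIs of it, in 38 cells, or 0 to 11 UMIs in a class on a day. The 11 UMIs were in *Cnmd*-high cells of day 10, at 0.242 CPM (95% CI, 0.121–0.432). In the *Col10a1*-high and *Ifitm5*-high cells of day 10 it had 0 UMIs, which allows up to 0.346 and 2.36 CPM at 3 counts. Its 25 UMIs in the classes were too few for a comparison, which needed 20 UMIs in a pair of classes, so 8 of the 9 genes were compared below.

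*Mef2c* (ENSMUSG00000005583; chromosome 13, 83504034 to 83667080, plus strand) was highest in *Ifitm5*-high cells, at 953 CPM (95% CI, 900.4–1009) and 967 CPM (95% CI, 936–999), and next in *Col10a1*-high cells, at 816 CPM (95% CI, 797–836) and 773 CPM (95% CI, 763–784). *Cnmd*-high cells had 355 CPM at day 7, 277 CPM at day 10, and 262 CPM at day 14. *Aspn*-high cells were lowest at 101 and 89.8 CPM. The order held on both days with no overlap, and the *Col10a1*-high cells exceeded the *Cnmd*-high cells, the next class in the order, by 2.95-fold on both days.

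**Figure D1:**
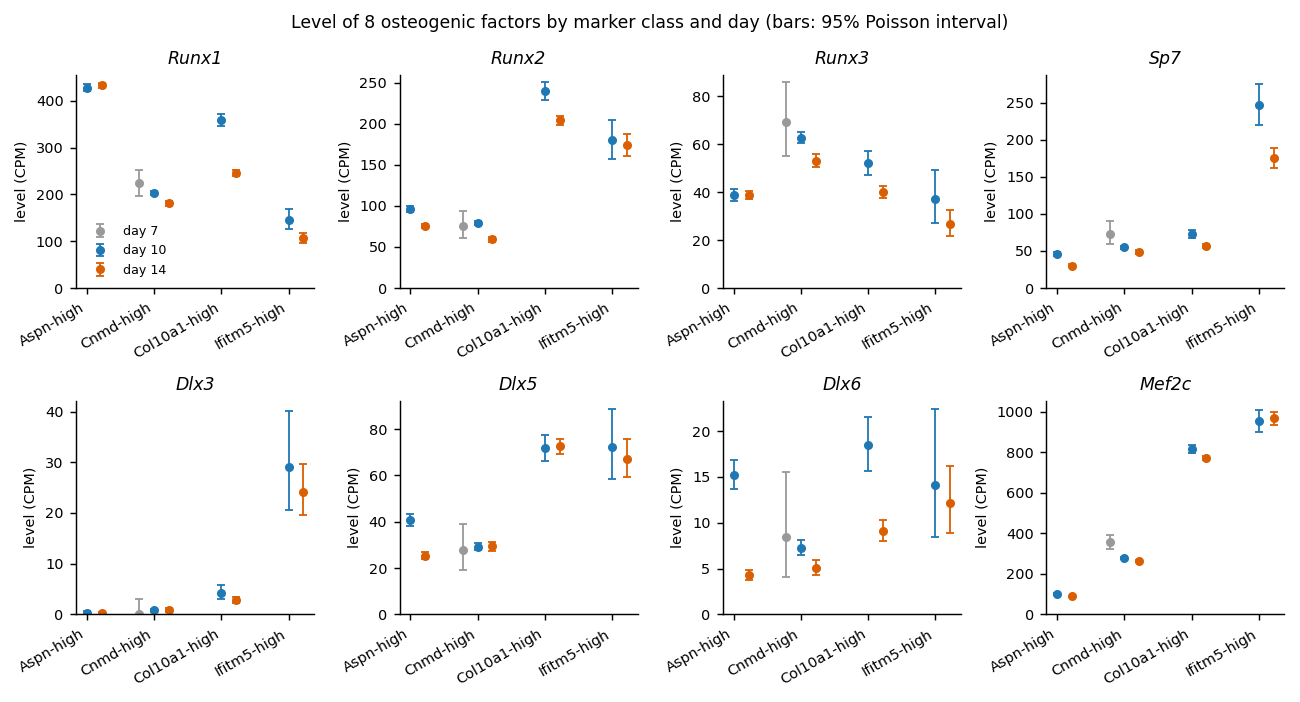
Level of 8 of the 9 factors (CPM of summed UMIs, linear axis from 0) in the 4 marker classes at day 7 (gray, classes with at least 50 cells), day 10 (blue), and day 14 (orange), with 95% Poisson intervals for counting error. *Runx1* is highest in *Aspn*-high cells, *Runx2* in *Col10a1*-high cells, *Runx3* in *Cnmd*-high cells, and *Sp7*, *Dlx3*, and *Mef2c* in *Ifitm5*-high cells on both days.

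Ratios between classes of 1 library hold the day. A gene was called when its ratio was 2-fold or more, and the same was counted over all genes with at least 20 UMIs in the pair of classes. Between *Ifitm5*-high and *Aspn*-high cells, 4 of the 8 factors compared were called at day 10 and 7 at day 14, while 29.4% and 31.7% of all genes were called. At day 10, 3 were higher and 1 lower in *Ifitm5*-high cells, and at day 14, 6 were higher and 1 lower. Over all genes 5.55% and 5.73% were called higher. The median log2 ratio of the 8 factors was 0.87 and 1.46, beside -0.41 and -0.45 over all genes.

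The largest of these ratios was that of *Dlx3*, with a log2 ratio of 6.48 (95% CI, 5.36 to 7.80) at day 10 and 6.57 (95% CI, 5.73 to 7.53) at day 14. *Mef2c* followed at 3.24 and 3.43, and *Sp7* at 2.42 (95% CI, 2.24 to 2.61) and 2.53 (95% CI, 2.40 to 2.66). *Runx1* had the opposite sign, at -1.55 (95% CI, -1.77 to -1.34) and -2.01 (95% CI, -2.16 to -1.87). *Runx2* was below 2-fold at day 10 and above it at day 14, with 0.90 and 1.19, as was *Dlx5*, with 0.83 and 1.41. For both, the place below 2-fold at day 10 depends on the scaling, as given under the alternatives. *Dlx6* had -0.10 and 1.51, with 15.2 and 4.25 CPM in *Aspn*-high cells. The markers of cycling cells summed to 73.7 CPM in *Aspn*-high and 10.2 CPM in *Ifitm5*-high cells at day 10 and to 33.1 and 37.1 CPM at day 14, and their part in these ratios was not tested.

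Between *Ifitm5*-high and *Col10a1*-high cells, 3 of the 8 factors were called on each day, 2 higher and 1 lower. Of all genes, 29.6% were called at day 10 (8.5% higher and 21.1% lower) and 30% at day 14 (9.33% and 20.6%). *Sp7* was higher by a log2 ratio of 1.76 (95% CI, 1.56 to 1.96) and 1.62 (95% CI, 1.48 to 1.75), and *Dlx3* by 2.77 (95% CI, 2.07 to 3.47) and 3.13 (95% CI, 2.67 to 3.59). *Runx1* was lower, at -1.29 (95% CI, -1.51 to -1.08) and -1.19 (95% CI, -1.34 to -1.05). *Dlx5*, *Dlx6*, *Mef2c*, *Runx2*, and *Runx3* differed by less than 2-fold, with the interval of *Dlx5* from -0.32 to 0.33 at day 10 and from -0.31 to 0.08 at day 14.

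Between *Col10a1*-high and *Cnmd*-high cells, the question is which factors differ between cartilage cells with and without the hypertrophic marker. At day 10, 5 of the 8 factors were called, all higher in *Col10a1*-high cells, and at day 14 4, where 26.6% and 24.7% of all genes were called and 14.3% and 14.2% called higher. *Runx2* had a log2 ratio of 1.59 (95% CI, 1.51 to 1.67) and 1.79 (95% CI, 1.71 to 1.87), and *Mef2c* 1.56 and 1.56. *Dlx5* had 1.30 and 1.30, *Dlx3* 2.47 and 1.72, and *Dlx6* 1.35 and 0.84, the last of these below 2-fold at day 14. *Sp7* was close in the pair of classes, at 0.40 (95% CI, 0.27 to 0.53) and 0.23 (95% CI, 0.13 to 0.34). The osteoclast markers, among them *Mmp9*, which hypertrophic chondrocytes also express, summed to 167 and 86.6 CPM in *Col10a1*-high cells and 10.4 and 11.6 CPM in *Cnmd*-high cells, and their part was not tested.

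The remaining pairs of classes complete the picture. Of the 8 factors, 5 and 6 were called between *Ifitm5*-high and *Cnmd*-high cells at day 10 and day 14, all higher in *Ifitm5*-high cells. Of all genes, 10.9% and 8.48% were called higher and 27.1% and 25.5% in either direction. Between *Col10a1*-high and *Aspn*-high cells 3 and 5 were called, all higher in *Col10a1*-high cells, beside 9.86% and 11.1% of all genes called higher and 31.4% and 33% in either direction. Between *Cnmd*-high and *Aspn*-high cells 4 (2 higher and 2 lower) and 3 (2 higher and 1 lower) were called. The shares of all genes were 27.9% and 28.1%, or 7.83% and 6.49% higher and 20.1% and 21.7% lower. In the last pair *Mef2c* was higher in *Cnmd*-high cells by 1.45 and 1.54 in log2 ratio, and *Runx1* had -1.07 and -1.26.

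**Figure D2:**
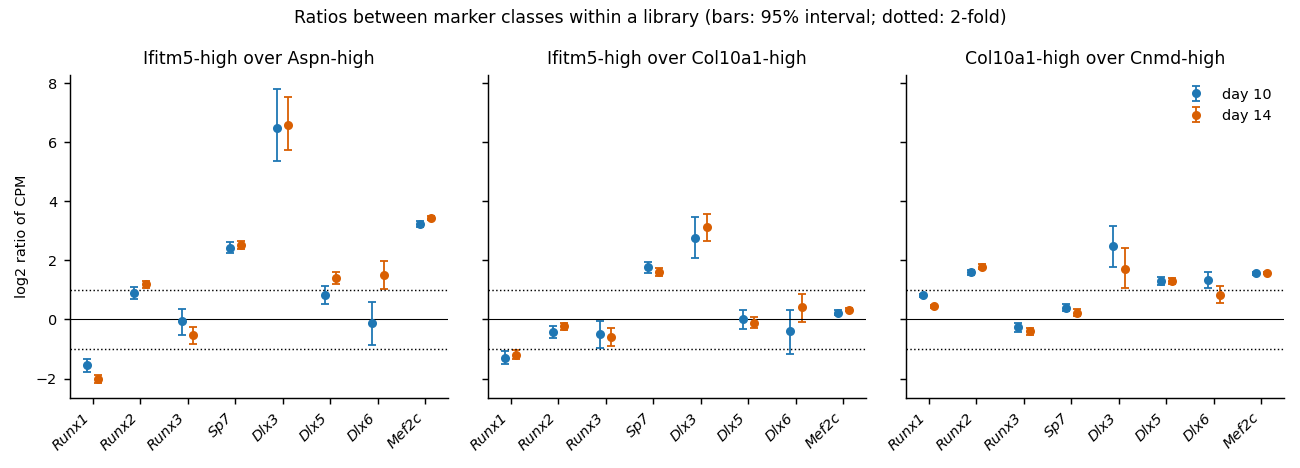
Log2 ratio of CPM between marker classes of the same library for 8 factors at day 10 (blue) and day 14 (orange), with 95% intervals and dotted lines at 2-fold. *Dlx3*, *Sp7*, and *Mef2c* lie above 2-fold for *Ifitm5*-high over *Aspn*-high cells and *Runx1* below, while *Runx2*, *Mef2c*, *Dlx3*, and *Dlx5* lie above 2-fold for *Col10a1*-high over *Cnmd*-high cells on both days.

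The classes rest on a threshold for the marker, so the members were also followed along the level of the marker in all cells without *Ptprc* UMIs. With *Col10a1* in the cell below 100, from 100 to 1000, from 1000 to 5000, from 5000 to 20000, and at 20000 CPM or more, *Runx2* had 90.8, 97.9, 134, 192, and 234 CPM at day 10. At day 14 it had 79.7, 87.3, 146, 177, and 222 CPM. The level was higher in each successive tier on both days. *Sp7* showed no such order along *Col10a1*, ranging from 58.2 to 79.9 CPM at day 10 and from 47.97 to 60.1 CPM at day 14.

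Along *Ifitm5*, with tiers below 100, from 100 to 1000, and from 1000 to 5000 CPM, *Sp7* had 57.8, 181, and 237 CPM at day 10 and 46.6, 125, and 170.2 CPM at day 14. *Dlx3* had 1.19, 17.8, and 29.4 CPM, then 1.10, 10.5, and 23.4 CPM. Both factors were thus already above their lowest tier in cells with *Ifitm5* below the threshold of the class. *Runx1* went the other way, with 286, 208, and 158 CPM at day 10. *Runx2* was 183 CPM in the middle and 178 CPM in the highest tier at day 10, against 103 CPM in the lowest.

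Along *Aspn*, with a further tier from 5000 to 20000 CPM, *Runx1* had 218, 247, 395, and 430.1 CPM at day 10 and 203, 249.3, 405, and 442 CPM at day 14. *Sp7* went from 80.8 to 35.8 CPM and from 70.6 to 21.2 CPM between the lowest and the highest tier. *Mef2c* went from 592 to 72.2 CPM and from 636 to 62.7 CPM. Along *Cnmd*, *Mef2c* was highest between 100 and 1000 CPM, at 474 and 443 CPM, and lowest from 5000 CPM, at 152 and 168 CPM.

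**Figure D3:**
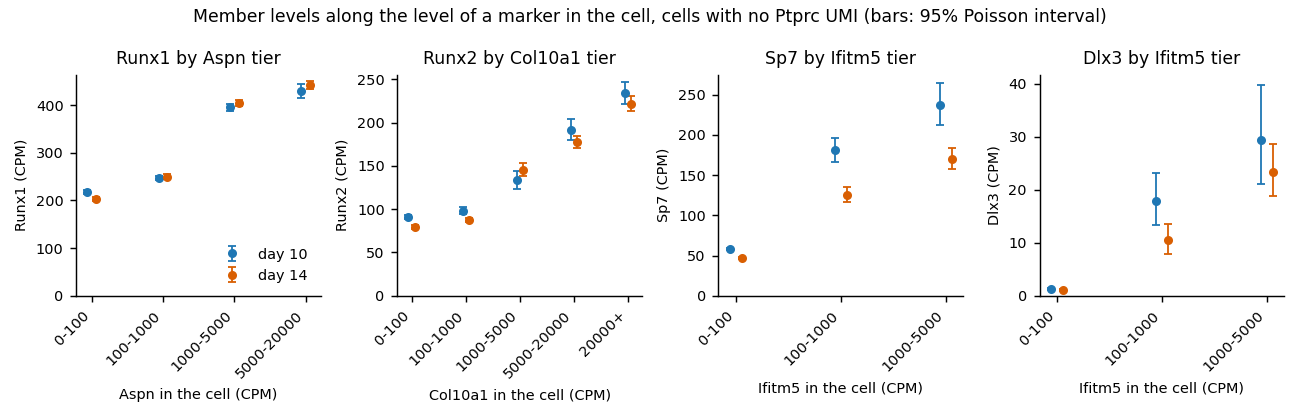
Level of a factor (CPM, linear axis from 0) in cells without *Ptprc* UMIs grouped by the level of a marker in the cell (CPM, tiers of at least 50 cells) at day 10 (blue) and day 14 (orange), with 95% Poisson intervals. *Runx1* is higher with *Aspn*, *Runx2* with *Col10a1*, and *Sp7* and *Dlx3* with *Ifitm5* in every successive tier.

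*Col10a1*-high cells were split by *Mmp13*, a collagenase of late hypertrophic chondrocytes and a RUNX2 target, at 1000 CPM in the cell. The split was chosen after the levels were seen. There were 340 cells with *Mmp13* at or above the limit and 180 below it at day 10, and 965 and 692 at day 14. *Runx1* was 458 CPM (95% CI, 441–476) in the cells with *Mmp13* and 168 CPM (95% CI, 153–183) in the others at day 10, and 309.7 against 157 CPM at day 14. *Runx2* was 279 CPM (95% CI, 265–293) against 164 CPM (95% CI, 149.9–179), and 243 against 152 CPM at day 14. *Dlx5* was 85.4 against 45.4 CPM and 88.9 against 50.2 CPM. *Mef2c* had the opposite direction, with 676 CPM (95% CI, 655–697) in the cells with *Mmp13* and 1086 CPM (95% CI, 1049–1124) in the others at day 10, and 683 against 898 CPM at day 14. On each day 2 of the 8 factors were called at 2-fold, both higher with *Mmp13*, beside 13.7% of all genes at day 10 and 8.26% at day 14 in either direction, and 9.06% and 5.2% higher. They were *Runx1* and *Dlx6* at day 10 and *Dlx3* and *Dlx6* at day 14.

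Cells outside the 4 classes were set beside them. Cells high for both *Cnmd* and *Col10a1* (335 at day 10 and 316 at day 14) had 127 and 111 CPM of *Runx2*, between the *Cnmd*-high and *Col10a1*-high classes. Their *Mef2c* was 937 CPM (95% CI, 914–959.8) and 758 CPM (95% CI, 737–779), at day 10 above both classes, and their *Runx1* was 146 and 158 CPM, below both. Cells high for none of the 4 markers but with *Ibsp*, which encodes bone sialoprotein, at 5000 CPM or more (521 and 793 cells, a limit chosen after the levels were seen) had 148 and 113 CPM of *Sp7* and 602 and 521 CPM of *Mef2c*. For *Sp7* these lay between the *Ifitm5*-high cells and every other class.

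Between day 10 and day 14 most of the factors moved by less than 2-fold within a class. In *Aspn*-high cells 1 of the 8 factors was called, where 6.32% of all genes were, in *Col10a1*-high cells 1, where 5.81% were, and in *Cnmd*-high and *Ifitm5*-high cells 0, where 5.33% and 6.14% were. Called lower at day 14 were 3.26% of all genes in *Aspn*-high and 2.44% in *Col10a1*-high cells. The called factor was *Dlx6* in both classes, lower at day 14 by a log2 ratio of -1.84 (95% CI, -2.09 to -1.59) in *Aspn*-high cells and -1.02 (95% CI, -1.32 to -0.73) in *Col10a1*-high cells. In *Cnmd*-high cells the ratio of *Dlx6* was -0.51 (95% CI, -0.80 to -0.24) and in *Ifitm5*-high cells -0.23 (95% CI, -1.04 to 0.65). The call in *Col10a1*-high cells was lost under 5 other choices of cells or scaling.

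The other ratios between the days were below 2-fold. *Sp7* had a log2 ratio of day 14 over day 10 of -0.60 in *Aspn*-high, -0.18 in *Cnmd*-high, -0.35 in *Col10a1*-high, and -0.50 in *Ifitm5*-high cells, each with an interval below 0. *Runx2* had -0.34, -0.43, -0.23, and -0.05, with an interval that reached above 0 in *Ifitm5*-high cells. *Runx1* was at 0.02 in *Aspn*-high cells, with an interval from -0.02 to 0.05, and at -0.55 in *Col10a1*-high and -0.45 in *Ifitm5*-high cells. *Mef2c* lay between -0.17 in *Aspn*-high and 0.02 in *Ifitm5*-high cells. In the *Cnmd*-high cells of day 7, 7 of the 9 factors could be compared with day 10 and 0 were called, beside 14% of all genes, and *Mef2c* had a log2 ratio of day 10 over day 7 of -0.36 and *Sp7* of -0.41.

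The summed hematopoietic markers differed between the days in the same classes, from 9.64 to 184 CPM in *Aspn*-high cells, 51.6 to 392 CPM in *Col10a1*-high cells, and 0.787 to 28.96 CPM in *Ifitm5*-high cells, with 7, 6, and 1 of 8 markers above 0 at day 10 and 7, 7, and 6 at day 14. Their part in the ratios between days was not tested. In the *Cnmd*-high cells these markers summed to 1945 CPM at day 7, 63.02 CPM at day 10, and 52.1 CPM at day 14. Their part in the ratios of day 10 over day 7 was not tested either.

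**Figure D4:**
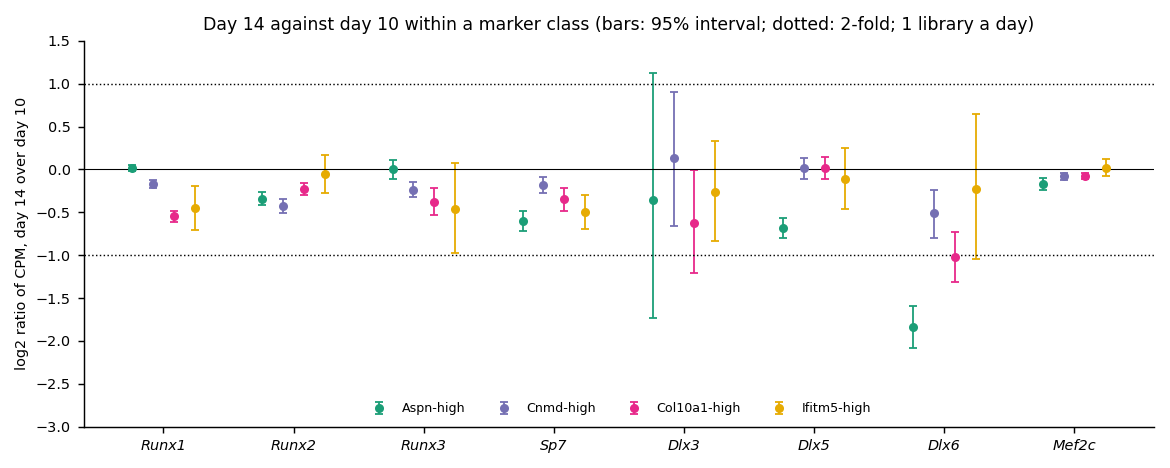
Log2 ratio of CPM at day 14 over day 10 for 8 factors in each marker class, with 95% intervals for counting error and dotted lines at 2-fold, from 1 library a day. *Dlx6* in *Aspn*-high and *Col10a1*-high cells lies below the line of a 2-fold decrease, and all other points lie between the lines.

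Detection in single cells was compared after each cell was thinned at random to 5000 UMIs, and shallower cells were left out. In thinned *Ifitm5*-high cells, *Sp7* was detected in 71.6% of 67 cells at day 10 and 55.6% of 216 cells at day 14. The shares were 28.5% and 25.03% in *Col10a1*-high cells, 21.4% and 19.5% in *Cnmd*-high cells, and 16.02% and 10.9% in *Aspn*-high cells. Free RNA also gives UMIs, and the share was 0.541% of 3325 cells with *Ptprc* UMIs at day 7, 3.62% of 138 such cells at day 14, and 4.50% of 111 *Rgs5*-high cells at day 14. Each of the 4 classes, taken as a whole, lay above these shares. Day 10 gave no such share, having 6 cells with *Ptprc* UMIs and 47 *Rgs5*-high cells, so its classes were not compared with free RNA of their own library. Without thinning, *Sp7* was seen in 94.5% and 83.5% of *Ifitm5*-high cells and in 32.4% and 21.8% of *Aspn*-high cells, at the median depths of 18267 and 15650 UMIs and of 15161.5 and 14088 UMIs. The median depth was 5045 UMIs in the cells with *Ptprc* UMIs at day 7 and 9210 at day 14.

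For *Runx2* the shares were 53.7% and 59.7% in *Ifitm5*-high, 65.7% and 58.3% in *Col10a1*-high, 35.7% and 29.4% in *Aspn*-high, and 30.5% and 26.2% in *Cnmd*-high cells, against 17.4% in cells with *Ptprc* UMIs and 11.7% in *Rgs5*-high cells of day 14. Without thinning they were 80.8% and 80.7% in *Ifitm5*-high cells and 63.8% and 53.5% in *Aspn*-high cells. A thinned cell held a mean of 3.33 and 3.06 of the 9 factors in the *Ifitm5*-high class, 3.09 and 2.74 in the *Col10a1*-high class, 2.03 and 1.89 in the *Cnmd*-high class, and 2.02 and 1.78 in the *Aspn*-high class at day 10 and day 14. The means of the *Ifitm5*-high and *Col10a1*-high classes lay above those of the other pair of classes on both days.

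*Runx2* acts upstream of *Sp7*, and the detection of the pair in the same cell was compared with what independent detection would give. In *Aspn*-high cells *Sp7* was detected in 20.1% (95% CI, 16.9% to 23.7%) of the cells with a *Runx2* UMI and 13.7% (95% CI, 11.7% to 16.03%) of the cells without at day 10, and in 14.6% (95% CI, 12.4% to 16.9%) and 9.33% (95% CI, 8.20% to 10.6%) at day 14. The cells with both were 1.21 and 1.34 times as many as under independence, averaged over all possible draws of the thinning. In *Col10a1*-high cells the shares were 29.7% and 26.2% at day 10, and 26.99% and 22.3% at day 14, a ratio to independence of 1.05 and 1.07.

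In *Ifitm5*-high cells *Sp7* was detected in 80.6% (95% CI, 63.98% to 91.8%) of 36 cells with a *Runx2* UMI and 61.3% (95% CI, 42.2% to 78.2%) of 31 cells without at day 10. At day 14 it was 56.6% (95% CI, 47.6% to 65.3%) of 129 cells and 54.02% (95% CI, 43.00% to 64.8%) of 87 cells. These shares come from a single random draw. The intervals overlapped on both days, and over all draws the means were 68.9% and 72.2% at day 10 and 59.05% and 53.5% at day 14. At day 10 the means thus had the opposite order to the single draw. A difference was not detectable at this depth in the class where *Sp7* was most often seen.

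**Figure D5:**
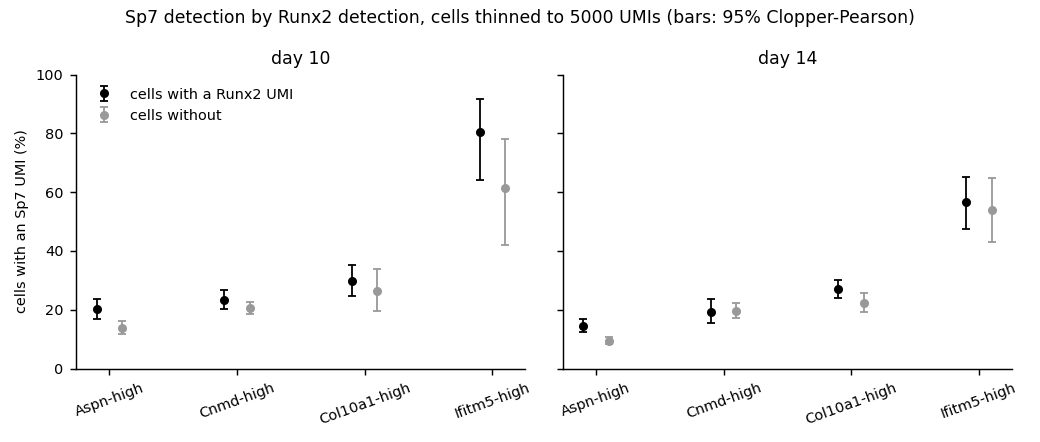
Share of cells with an *Sp7* UMI (percent) among cells with a *Runx2* UMI (black) and without (gray) in each marker class, each cell thinned to 5000 UMIs, with 95% Clopper-Pearson intervals. In *Aspn*-high cells the intervals do not overlap on either day, and in *Ifitm5*-high cells they do, around shares of 54.0% to 80.6%. The shares come from a single random draw, and in *Ifitm5*-high cells at day 10 the means over all draws have the opposite order.

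Of the 36 pairs of the 9 factors, those with at least 5 cells expected under independence were compared with it. The median ratio over 21 pairs in *Aspn*-high cells was 1.20 at day 10 and 1.27 at day 14, and it was 1.01 over 24 pairs and 1.06 over 26 pairs in *Col10a1*-high cells. In *Cnmd*-high cells it was 1.08 over 7 pairs at day 7, 1.16 over 21 at day 10, and 1.14 over 20 at day 14. In *Ifitm5*-high cells it was 1.00 over 17 pairs and 1.01 over 23 pairs. The ratio is bounded by the inverse of the larger share of detection, so a factor seen in most cells keeps it near 1. Thinned to only 2000 UMIs, *Mef2c* was detected at day 10 in 83.3% of *Ifitm5*-high, 70.3% of *Col10a1*-high, and 17.2% of *Aspn*-high cells. The pairs compared also differed between classes, so these medians do not rank the classes. The highest ratio in *Aspn*-high cells was that of the neighbors *Dlx5* and *Dlx6*, at 2.59 and 3.84. *Dlx6* was detected in 18.1% (95% CI, 13.7% to 23.3%) of the *Aspn*-high cells with *Dlx5* and 4.73% (95% CI, 3.63% to 6.03%) of those without at day 10. *Sp7* with *Dlx5* gave 1.47 and 2.19 in the same class, and *Sp7* with *Mef2c* 1.42 and 1.60. *Runx1* with *Runx2* lay at 1.01 and 1.01 in *Aspn*-high cells, and *Runx1* with *Mef2c* in *Cnmd*-high cells below 1, at 0.959 and 0.910.

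Targets and partners were taken from lists of known genes. Of 14 genes of bone matrix that RUNX2 or SP7 regulate, 12 could be compared between *Ifitm5*-high and *Aspn*-high cells at day 10 and 14 at day 14, and all of those were called higher in *Ifitm5*-high cells, with median log2 ratios of 4.27 and 4.84. Over the whole table, 5.55% and 5.73% of genes were called higher in this contrast and the medians were -0.41 and -0.45. *Dmp1*, which encodes a mineralization protein of late osteoblasts and osteocytes, had a log2 ratio of 7.03 and 6.43, *Bglap* (osteocalcin) 6.57 and 5.46, and *Smpd3*, a sphingomyelinase needed for mineralization, 4.96 and 5.41. Some of these genes also stand in the osteoblast marker list. Between *Ifitm5*-high and *Col10a1*-high cells, 6 of 13 were called higher and 1 lower at day 10, and 9 of 14 higher and 1 lower at day 14, beside 8.5% and 9.33% of all genes called higher and 21.1% and 20.6% lower.

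Of 8 targets in hypertrophic cartilage, 7 were called higher in *Col10a1*-high than in *Cnmd*-high cells at day 10 and 6 at day 14, and none lower, with *Col10a1* itself, which chose the cells, among them. Of all genes, 14.3% and 14.2% were called higher and 12.3% and 10.4% lower. *Mmp13* had a log2 ratio of 6.19 and 4.73, and *Tnfsf11*, which encodes the osteoclast factor RANKL, 5.32 and 4.46. Of 15 other osteoblast factors, 3 of 10 compared were higher and 2 lower in *Ifitm5*-high than in *Aspn*-high cells at day 10, and 4 of 11 higher and 2 lower at day 14. Of all genes, 5.55% and 5.73% were called higher and 23.9% and 25.9% lower, so the lower calls were no more frequent in the list than over all genes. In *Col10a1*-high over *Aspn*-high cells 7 of 12 and 8 of 13 were higher and 1 lower on each day. Of all genes, 9.86% and 11.1% were higher there and 21.6% and 21.9% lower. In *Ifitm5*-high over *Col10a1*-high cells 2 of 12 and 2 of 13 were higher and 5 lower on each day. The shares of all genes there were 8.5% and 9.33% higher and 21.1% and 20.6% lower. *Tcf7*, a Wnt pathway factor, stood at 79.4 and 84.3 CPM in *Ifitm5*-high cells against 4.51 and 2.68 CPM in *Aspn*-high cells, and *Msx1*, the relative of *Msx2*, at 2.36 and 3.69 CPM against 16.1 and 10.03 CPM.

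Of 15 genes whose products restrain RUNX2, 14 were compared between *Ifitm5*-high and *Aspn*-high cells. At day 10, 1 was higher and 5 lower in *Ifitm5*-high cells, and at day 14, 0 higher and 5 lower. Of all genes, 23.9% and 25.9% were called lower. The lower calls were not particular to *Ifitm5*-high cells. Against *Aspn*-high cells, 5 and 6 of 14 were lower in *Col10a1*-high cells, where 21.6% and 21.9% of all genes were. In *Cnmd*-high cells 4 and 5 of 14 were lower, where 20.1% and 21.7% of all genes were. In these contrasts 0 were higher. *Zfp521* stood at 5.51 and 5.27 CPM in *Ifitm5*-high and 38.1 and 39.99 CPM in *Aspn*-high cells, and *Tle1*, which encodes a Groucho family corepressor, at 4.72 and 5.79 CPM against 15.6 and 12.4 CPM. Of 11 chondrocyte factors, 2 of 11 compared at day 10 and 2 of 10 at day 14 were higher in *Col10a1*-high than in *Cnmd*-high cells and 2 lower on each day. These counts were near the share over all genes, 14.3% and 14.2% higher and 12.3% and 10.4% lower. *Mef2a*, a relative of *Mef2c*, was among the higher genes, at 259 and 249.4 CPM against 111 and 104 CPM, and *Sox5*, a partner of SOX9, among the lower, at 17.3 and 20.3 CPM against 97.04 and 68.6 CPM.

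Across the 9 combinations of class and day with at least 50 cells, the genes with the profile most like that of *Runx2* among 3723 genes were *Tgfb1*, *Dapk2*, *Insig2*, *Dlx5*, and *Zfand5*, with Pearson correlations of 0.981, 0.979, 0.966, 0.966, and 0.965 on log2(CPM + 10). For *Sp7* they were *Slc13a5* (0.986), *Carmil1* (0.980), *Rps6kb1* (0.977), *Prex1* (0.971), and *Spns2* (0.963). The points share libraries and cell classes, so these values rank genes and test nothing. Among the members, *Sp7* and *Dlx3* were alike (0.94), as were *Runx2* and *Dlx5* (0.97), while *Runx1* ran against *Sp7* (-0.75) and *Runx3* against *Dlx3* (-0.65).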

How the data were processed

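The authors aligned the reads of 3 droplet libraries to mm10 with Cell Ranger, version 3.0 per the labels and 3.1.0 per the file headers, and deposited raw UMI counts for each gene in each cell. The paper names a later version than either, and which of them made the deposited counts is not known. The limits on cells given in the paper had not been applied to the deposited barcodes and were applied here. No doublet caller was run beyond the upper limit of 5000 genes. Members and gene lists were chosen with earlier results of these data known. The *Mmp13*, *Ibsp*, *Rgs5*, and *Dlx5*/*Dlx6* groups were chosen after the levels were seen. From the lists, up to 4 genes a contrast with the largest change in the same direction on both days could be named.

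Counts were summed per class and library and scaled to CPM (Python 3.11.15, numpy 2.4.6, scipy 1.17.1, pandas 2.3.3, matplotlib 3.10.9). Ratios have exact binomial (Clopper-Pearson) intervals. A gene needed 20 UMIs in both classes together, a class 50 cells, and a count of 0 was read as allowing 3. Thinning drew 5000 UMIs per cell without replacement (seed 1), and left out 6 to 268 cells of a class at day 10 and day 14. The functions were tested on simulated data. Intervals and floors cover counting error only. Alternatives changed the marker level, the cell limits, the scaling, the fold, the count filter, and the thinning depth.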

Additional observations from a re-analysis of the deposited data

Results flagged for a closer look

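*Dlx5* stood on opposite sides of equality in the same pair of classes on different days. The log2 ratio of *Cnmd*-high over *Aspn*-high cells was -0.478 (95% CI, -0.60 to -0.36) at day 10 and 0.216 (95% CI, 0.09 to 0.34) at day 14. The level in *Cnmd*-high cells was 29.2 and 29.4 CPM and that in *Aspn*-high cells 40.6 and 25.3 CPM. With 1 library a day, the difference between the days was not tested, and neither ratio reached 2-fold.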

How the results depend on the processing

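Alternatives were run for *Ifitm5*-high over *Aspn*-high, *Col10a1*-high over *Cnmd*-high, and *Ifitm5*-high over *Col10a1*-high cells, and for day 14 over day 10. Of the 28 ratios called at 2-fold there, 251 values under the alternatives all kept their direction and 242 stayed 2-fold. The ratios of the remaining pairs of classes, of the *Mmp13* split, and of day 10 over day 7 were not rerun. *Runx1* in *Ifitm5*-high over *Col10a1*-high cells fell under 2-fold at day 10 with 2000 CPM for a high cell (-0.88) and, with every cell high for the marker, on both days (-0.74 and -0.96). Under the latter, *Dlx5* in *Col10a1*-high over *Cnmd*-high cells was 0.97 at day 10. The count of factors called in *Col10a1*-high cells between the days was 0, in place of 1, with every cell high for the marker, with no upper limit of genes, with 4000 genes as the limit, with all deposited barcodes, and with the mean over cells of each CPM. At 1.5-fold it was 2, and 3 in *Aspn*-high cells, and at 3-fold it was 0. At 3-fold, 4 factors were called in *Ifitm5*-high over *Aspn*-high cells at day 14 and 2 in *Col10a1*-high over *Cnmd*-high cells on each day. With a filter of 1 UMI, 1 factor, *Msx2*, was called between the days in *Cnmd*-high cells. The share of *Ifitm5*-high cells with *Sp7* among those with *Runx2* followed the thinning depth, at 26.3% and 30.2% with 2000 UMIs and 83.5% at day 14 with 10000 UMIs. Scaling without the 50 most abundant genes moved the median of all genes in *Ifitm5*-high over *Aspn*-high cells up by 0.27 and 0.25 in log2 ratio. A shift of that size carries *Runx2* (0.90) and *Dlx5* (0.83) past 2-fold at day 10. The count of factors called there, and the difference of these 2 calls between the days, thus depend on the scaling. The causes were not tested. No paired analysis was possible because each day had 1 library. The limits are the single libraries, the 73 *Ifitm5*-high cells of day 10, and the low counts of *Dlx3*, *Dlx6*, and *Msx2*.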

Other observations

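Within the *Aspn*-high class, cells with at least 2 UMIs of *Dlx5* and *Dlx6* together (314 at day 10 and 321 at day 14) were set beside cells with none (966 and 2818). Their median depths were 14790 and 15064 UMIs at day 10 and 16469 and 13328 UMIs at day 14. Among genes at 50 CPM or more in the cells with *Dlx5* or *Dlx6*, the 10 other genes with the largest excess on both days were *Id2*, *Omd*, *Pdzrn4*, *Bglap2*, *Ibsp*, *Efna5*, *Chad*, *Lpl*, *Fgfr3*, and *Alpl*. *Bglap2*, an osteocalcin gene, stood at 349 against 39.9 CPM at day 10 and 158 against 46.4 CPM at day 14. *Omd*, which encodes osteomodulin of bone matrix, stood at 442 against 80.0 CPM and 345 against 94.7 CPM. *Ibsp* stood at 6903 against 2178 CPM and 7076 against 1711 CPM, and *Alpl*, the phosphatase of mineralizing cells, at 828 against 287 CPM and 820.1 against 302 CPM.

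The other factors in these cells did not all go the same way. *Sp7* was 82.2 against 27.2 CPM at day 10 and 87.7 against 18.6 CPM at day 14, with log2 ratios of 1.60 (95% CI, 1.39 to 1.80) and 2.24 (95% CI, 2.07 to 2.41). *Runx2* was 129 against 80.4 CPM and 113 against 66.3 CPM, and *Runx1* was lower, at 367 against 451 CPM and 375 against 443 CPM. The split was chosen after the levels were seen, the cells come from 1 library a day, and the part of the higher depth at day 14 was not tested.

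*Msx2* had 4 UMIs in the 125 *Rgs5*-high cells of day 14 and 0 UMIs in 47 such cells of day 10, against 1 to 5 UMIs in each of the 4 classes of day 14. The groups differ widely in number of cells, the *Rgs5* group was chosen after the levels were seen, and these counts are too few for a comparison.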
